A study of Drosophila melanogaster with 3 samples.

Results

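The nuclear genes for the subunits of the mitochondrial respiratory chain were examined for binding of Smox in white prepupae of Drosophila melanogaster. They were taken as every protein-coding gene whose symbol starts with ND- (complex I), Sdh (complex II), UQCR- (complex III), COX (complex IV) or ATPsyn (complex V). The rule gave 88 genes among 13968 protein-coding genes, with 40 in complex I, 8 in complex II, 9 in complex III, 16 in complex IV and 15 in complex V. It used symbols alone and no measured value. The prefix Sdh also takes in Sdhaf3, an assembly factor and not a subunit.

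The study measured where Smox sits on chromatin by ChIP-seq, in which DNA bound by a protein is recovered with an antibody and sequenced. Its samples were 3 biological replicates of 1 group: whole prepupae, males and females pooled, of a transgenic line that stably expresses Smox with GFP at its C-terminus, precipitated with an antibody to GFP. The labels record no other allele, treatment or age, and there is no second condition, so no contrast between conditions exists and no test is given. The protein measured was the GFP fusion, and whether the line keeps untagged Smox is not given in the sources used here. The lists come from whole animals: a site bound in few cells and a site bound weakly in many cannot be told apart, and the lists hold no expression values against which the tissue could be checked.

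Smox is a SMAD transcription factor of the Activin branch of TGF-beta signalling, a pathway in which ligand-bound receptor kinases phosphorylate SMAD proteins that then enter the nucleus and bind DNA, often at the short SMAD box. The respiratory chain sits in the inner mitochondrial membrane. Complexes I and II pass electrons from NADH and succinate to ubiquinone, complex III hands them to cytochrome c, complex IV reduces oxygen, and complex V uses the resulting proton gradient to make ATP. Most subunits are encoded in the nucleus and a few in the mitochondrial genome, so assembly draws on both.

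The authors deposited a list of regions for each replicate, a list for the pooled replicates and a thresholded list, each region with a score and a summit, which is the position of its strongest signal. A gene was counted as called when a summit of the thresholded list lay within 1 kb of any of its annotated transcription start sites (TSSs). Regions were ranked by the authors' score, with rank 1 the strongest of the pooled list. The thresholded list held 6622 regions and was exactly the top of the 30000 pooled regions, so a rank is the same in both. Within each replicate list of 30000 regions, a gene counted as called when its summit belonged to the 6622 strongest.

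By this rule 18 of the 88 respiratory chain genes were called, or 20.5% (exact 95% interval 12.6 to 30.4%, counting error only), against 18.9% of all protein-coding genes. Replicate 1 called 18 of them (20.5%), replicate 2 called 17 (19.3%) and replicate 3 called 23 (26.1%). That is a mean of 19.33 ± 3.21 genes, or 22.0% ± 3.65 (SD, n = 3), and the shares over all genes were 20.7% in replicate 1, 20.6% in replicate 2 and 22.0% in replicate 3. In all 3 replicates 13 of the 88 genes were called (14.8%), against 15.3% of all genes. The share of respiratory chain genes was therefore near that of all genes in the thresholded list and in replicates 1 and 2, and higher in replicate 3 by about the SD between replicates. Any region of the pooled list, weak ones included, lay within 1 kb of 29 of the 88 genes (33.0%), against 37.7% of all genes. No region of any of the 4 full lists lay near 39 of the 88, and none lay near 5575 of the 13968 protein-coding genes.

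The called genes spanned most of the strength range of the list. Their median rank was 1976.5, against 2331 over the 2639 called genes of the genome, and they ran from rank 273 at ND-ASHI to rank 5300 at COX5B. They lay on every major arm: 4 of 13 on X, 4 of 16 on 2L, 2 of 17 on 2R, 2 of 20 on 3L, 5 of 20 on 3R and 1 of 2 on chromosome 4. No summit was shared between respiratory chain genes, and 5 of the 18 called genes had 2 summits within 1 kb.

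**Figure D1:**
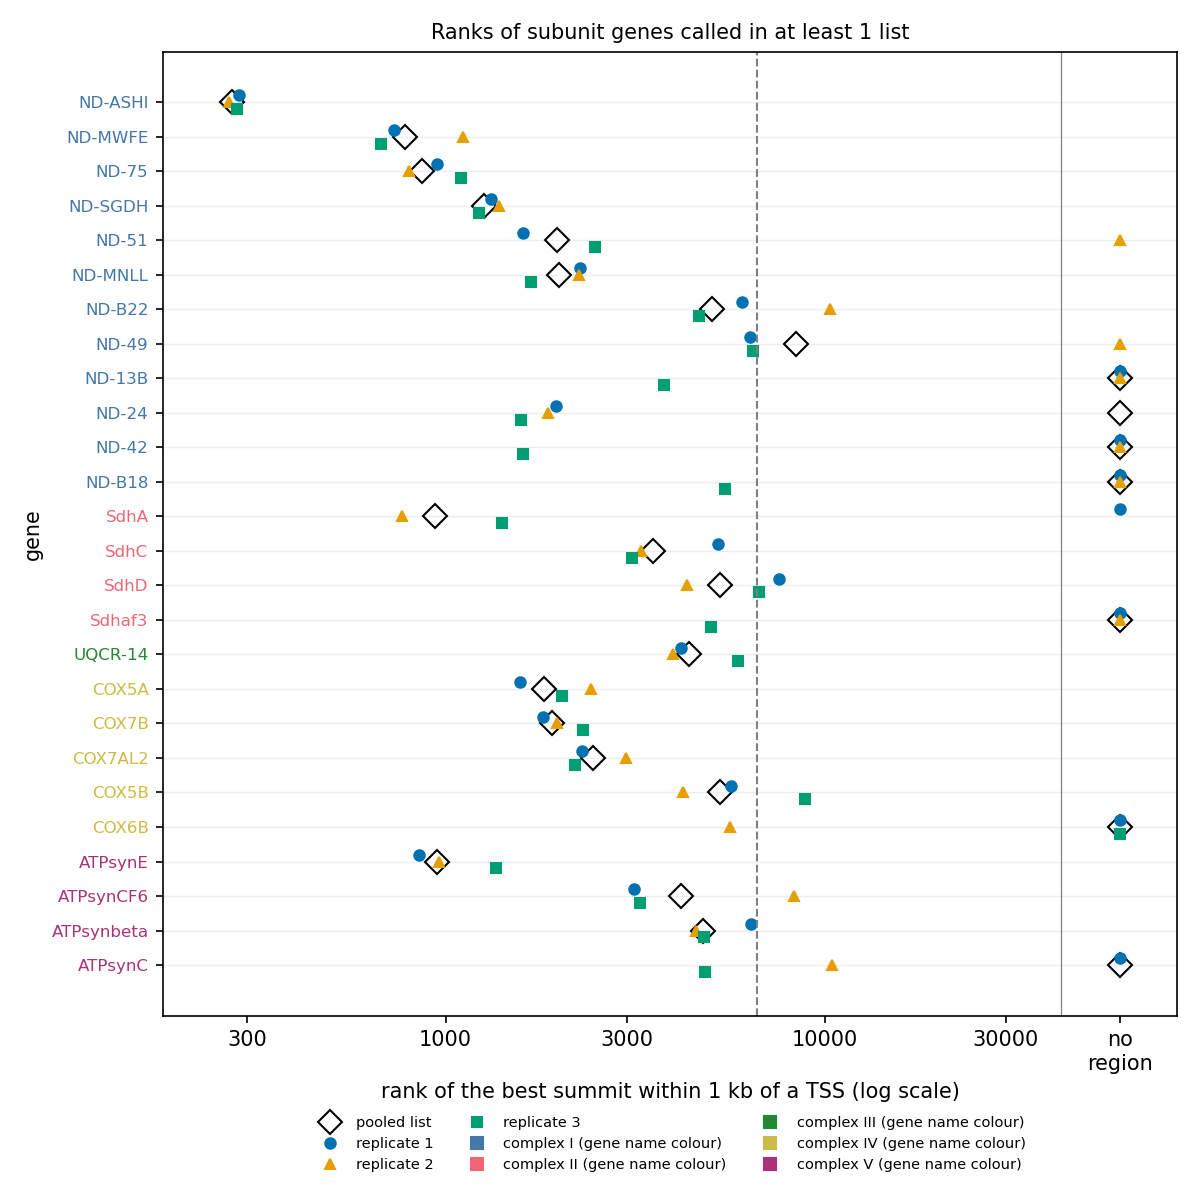
Rank of the best summit within 1 kb of a TSS (log scale, strongest at left) in the pooled list and in each replicate list, for every respiratory chain gene called in at least 1 list; the dashed line is rank 6622, and symbols at the right have no region there. ND-ASHI is strongest in all 4 lists, and ND-24 is strong in the 3 replicates with no region in the pooled list.

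The DNA under 7 of these summits is shown, as examples of strong and weaker called sites with a SMAD box within 75 bases. Of the 18 best summits 9 held one (50%), against 40.7% over all called genes. The 7 therefore do not stand for the called sites as a whole. The strong summits of ND-MWFE, SdhA and ATPsynE held none. ND-ASHI, ND-75, ND-SGDH, ND-51 and COX7B are genes of complexes I and IV with strong summits that hold a SMAD box (GTCT on either strand, AGAC when read from the other strand), and SdhD and ATPsynCF6 are weaker summits whose SMAD box lies outside the printed stretch, within 75 bases of the summit. Each is up to 101 bases centred on the summit, on the strand of the gene, from the dm6 assembly (Release 6), trimmed where it reached a UTR of the annotation. Capitals mark the SMAD box in the first 5 and, in the last pair, CGATA, the core bound by the boundary factor BEAF-32.
ND-ASHI (chrX:6679304-6679404, minus strand, intron of Fum1): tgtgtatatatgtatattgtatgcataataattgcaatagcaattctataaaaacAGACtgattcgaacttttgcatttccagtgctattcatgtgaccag
ND-75 (chrX:8252398-8252498, minus strand, intergenic): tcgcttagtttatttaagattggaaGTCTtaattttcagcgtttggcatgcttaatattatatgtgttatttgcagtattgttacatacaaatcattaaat
ND-SGDH (chr3L:12138629-12138729, minus strand, intergenic): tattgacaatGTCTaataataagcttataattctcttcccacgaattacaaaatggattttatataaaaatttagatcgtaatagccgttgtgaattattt
ND-51 (chr2L:6062801-6062901, minus strand, intergenic): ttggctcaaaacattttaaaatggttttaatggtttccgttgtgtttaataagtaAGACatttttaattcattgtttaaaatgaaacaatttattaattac
COX7B (chr3L:17425299-17425399, plus strand, intergenic): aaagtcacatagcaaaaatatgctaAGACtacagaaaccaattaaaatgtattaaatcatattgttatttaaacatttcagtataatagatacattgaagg
SdhD (chr3R:23760601-23760694, minus strand, intergenic): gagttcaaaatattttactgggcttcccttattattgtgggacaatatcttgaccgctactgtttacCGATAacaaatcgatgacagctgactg
ATPsynCF6 (chr3R:23356208-23356277, minus strand, intergenic): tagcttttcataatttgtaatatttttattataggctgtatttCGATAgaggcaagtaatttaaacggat

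Complex I, the NADH dehydrogenase and the largest of the 5 complexes, had 7 of 40 genes called (17.5%, exact 95% interval 7.34 to 32.8%). Replicate 1 called 9, replicate 2 called 6 and replicate 3 called 12, and 6 genes were called in all 3. The strongest was ND-ASHI, which encodes a subunit of the membrane arm, at rank 273 of the pooled list. It ranked 285 in replicate 1, 268 in replicate 2 and 282 in replicate 3, the closest agreement among the genes called in all 3 replicates. Its summit lay 236 bp upstream, inside an intron of Fum1, the gene for the citric acid cycle enzyme fumarase. An inner start of Fum1, on the opposite strand, lies 286 bp from the same summit, so the region stands between starts of 2 genes of mitochondrial metabolism.

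ND-MWFE, a small subunit with a single membrane helix, had rank 782 in the pooled list. Its ranks were 730 in replicate 1, 1113 in replicate 2 and 677 in replicate 3. The summit was 179 bp upstream of ND-MWFE but 42 bp from an inner start of TppII, a peptidase gene that faces away from it, and lay in a TppII intron. ND-75 encodes the largest iron-sulfur subunit, in the arm that oxidises NADH, and its best summit ranked 868, with ranks of 948, 800 and 1095 in replicates 1, 2 and 3. That summit was 761 bp upstream, nearer to the start of CG1632 at 222 bp, and a further summit of rank 5960 lay 961 bp upstream. In both genes all 3 replicates placed the summit within 5 bp of each other.

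ND-SGDH, an accessory subunit gene, had a summit of rank 1262 at 95 bp upstream, between its own start and that of RhoGAP68F, and a further summit of rank 1663 at 775 bp upstream. The 3 replicates ranked it 1314, 1380 and 1226. ND-51 encodes the flavoprotein that takes electrons from NADH. Its region, 94 bp upstream and shared with the divergent gene CG13994, had rank 1964 in the pooled list, 1598 in replicate 1 and 2481 in replicate 3, but replicate 2 had no region within 1 kb among its 30000. ND-MNLL, a small membrane-arm subunit gene, ranked 1989 in the pooled list and 2255, 2240 and 1678 in replicates 1, 2 and 3. Its best summit lay 892 bp downstream of a start it shares with CG45089, past the end of the gene, and a weaker one of rank 2829 lay 52 bp upstream. The 3 replicates did not choose the same summit there: replicates 1 and 2 had 880 and 892 bp downstream, and replicate 3 had 48 bp upstream. ND-B22, an accessory subunit gene with a summit 7 bp inside its 5′ UTR, was weaker, at rank 5044 in the pooled list, 6030 in replicate 1, 10333 in replicate 2 and 4651 in replicate 3.

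The 7 nuclear genes for catalytic core subunits of complex I, among them the carriers of the flavin and the iron-sulfur clusters, were also counted apart. ND-75 and ND-51 were called, which is 2 of 7 (28.6%, exact 95% interval 3.67 to 71.0%). The remaining 33 genes had 5 called (15.2%, exact 95% interval 5.11 to 31.9%). Both intervals include the 18.9% of all genes. Replicates 1, 2 and 3 called 4, 2 and 4 of the 7 core genes, against 20.7, 20.6 and 22.0% of all genes. A set of 7 genes is too small to read a difference from. Beside the thresholded list, replicates 1 and 3 added ND-24 and ND-49, while replicate 2 had ND-24 in place of ND-51. ND-24, the flavoprotein partner of ND-51, ranked 1958 in replicate 1, 1863 in replicate 2 and 1576 in replicate 3, with summits 79, 49 and 83 bp downstream of a start. The pooled list had no region within 1 kb of it, and the nearest thresholded summit was 7028 bp upstream. ND-24 was thus called in all 3 replicates and absent from the pooled and thresholded lists. Over the genome 75 of the 2138 genes called in all 3 replicates had no pooled region, and among the 13 such respiratory chain genes it was ND-24 alone. Counted by regions, 89 of 4855 replicate 1 regions that overlapped a strongest region of both other replicates overlapped no pooled region (1.83%), and replicates 2 and 3 gave 1.73% and 1.82%. ND-49, which forms part of the ubiquinone site, lay at the border, with rank 6325 in replicate 1, no region in replicate 2, rank 6472 in replicate 3 and rank 8370 in the pooled list.

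Other complex I genes were called in replicate 3 alone. ND-42 ranked 1595 there, at 228 bp upstream, ND-13B ranked 3772 and ND-B18 ranked 5449. None of these 3 genes had a region in replicates 1 or 2 or in the pooled list. The higher count of replicate 3 in complex I therefore included genes that the other lists did not contain at any strength.

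Complex II, the succinate dehydrogenase, had 3 of its 8 genes called (37.5%), with a wide exact 95% interval of 8.52 to 75.5%. Replicate 1 called 1 and replicates 2 and 3 called 3 each. The enzyme has a flavoprotein, SdhA, an iron-sulfur protein, SdhB, and the membrane anchors SdhC and SdhD, and all but SdhB were called. SdhA ranked 940 in the pooled list, 769 in replicate 2 and 1412 in replicate 3, and had no region in replicate 1. Its summit lay 915 bp upstream, and the nearer start was that of cer, the gene of a cathepsin inhibitor, at 114 bp. SdhC had a summit of rank 3530 at 118 bp upstream, facing the start of Tctp at 280 bp, and a further one of rank 4605 at 317 bp upstream. Its ranks of 5225, 3283 and 3103 in replicates 1, 2 and 3 were the widest spread by ratio, 1.68, among genes called in all replicates. SdhD, with its summit 44 bp upstream and no other start within 1 kb, was at rank 5281 in the pooled list and 7551, 4334 and 6719 in replicates 1, 2 and 3, so replicate 2 alone called it. SdhB had a region in every list, at ranks 10843 in the pooled list and 17159, 11387 and 11219 in the replicates, all below the threshold. The assembly factor Sdhaf3 was called in replicate 3 alone, at rank 4998.

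Complex III, the cytochrome bc1 complex, had 1 of 9 genes called (11.1%, exact 95% interval 0.281 to 48.2%), and each replicate called that gene alone. It was UQCR-14, at rank 4382 in the pooled list and 4167, 3985 and 5908 in replicates 1, 2 and 3. The pooled summit lay 931 bp upstream, in the 3′ UTR of eas, the ethanolamine kinase gene. Replicates 2 and 3 had theirs at 905 and 939 bp upstream, while that of replicate 1 was 70 bp upstream. UQCR-C1 and UQCR-C2 encode the large core proteins. UQCR-C1 had no region in any list, and UQCR-C2 had one in replicate 2 alone, at rank 7280, below its strongest 6622. UQCR-11 had a region in every list, at rank 10710 in the pooled list and between 10574 and 21631 in the replicates.

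Complex IV, the cytochrome c oxidase, had 4 of 16 genes called (25.0%, exact 95% interval 7.27 to 52.4%), with 4 in replicate 1, 5 in replicate 2 and 3 in replicate 3. COX5A, a peripheral matrix-side subunit, ranked 1821 in the pooled list and 1566, 2422 and 2023 in replicates 1, 2 and 3. Its summit was in an intron of COX5A, 75 bp before an inner start of the gene and 104 bp from the start of glo, an RNA-binding protein gene on the opposite strand. COX7B ranked 1904, with 1811, 1961 and 2296 in the replicates, and its summit sat midway between 2 divergent starts, 128 bp from its own and 132 bp from that of the exocyst gene Sec3. All 3 replicates put this summit within 6 bp. COX7AL2, a copy of COX7A, had a summit of rank 2449 in its 5′ UTR, 532 bp downstream of a start, and a further summit of rank 4008 at 584 bp upstream. Replicates 1 and 3 chose the downstream site and replicate 2 the upstream one, so the summits ranged over 1205 bp, the widest among the 13 genes called in all 3 replicates. COX5B, the zinc-binding subunit, was the weakest called gene, at rank 5300 in the pooled list and 5657, 4236 and 8884 in the replicates, with the start of the intraflagellar transport gene IFT52 nearer to the summit, at 70 bp. COX6B was called in replicate 2 alone, at rank 5623. COX4 and COX5BL, a copy that lies just after COX5B, had no region in any list.

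Complex V, the ATP synthase, had 3 of 15 genes called (20.0%, exact 95% interval 4.33 to 48.1%), with 3, 2 and 4 in replicates 1, 2 and 3. ATPsynE, a small membrane subunit gene, had the strongest, at rank 950 in the pooled list and 850, 963 and 1358 in the replicates. That summit was 787 bp downstream of its start, past the end of the gene, and 196 bp upstream of spn-B, a DNA repair gene. ATPsynCF6, coupling factor 6 of the stalk, ranked 4161 in the pooled list, 3134 in replicate 1, 8263 in replicate 2 and 3260 in replicate 3, with the start of the secretory coat gene Sec13 20 bp from the summit. ATPsynbeta, the catalytic subunit, ranked 4769 in the pooled list and 6366, 4561 and 4798 in the replicates, and its summit was in coding sequence 32 bp after a start. ATPsynC, the proton-carrying ring subunit, was called in replicate 3 alone, at rank 4842, and ranked 10443 in replicate 2.

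**Figure D2:**
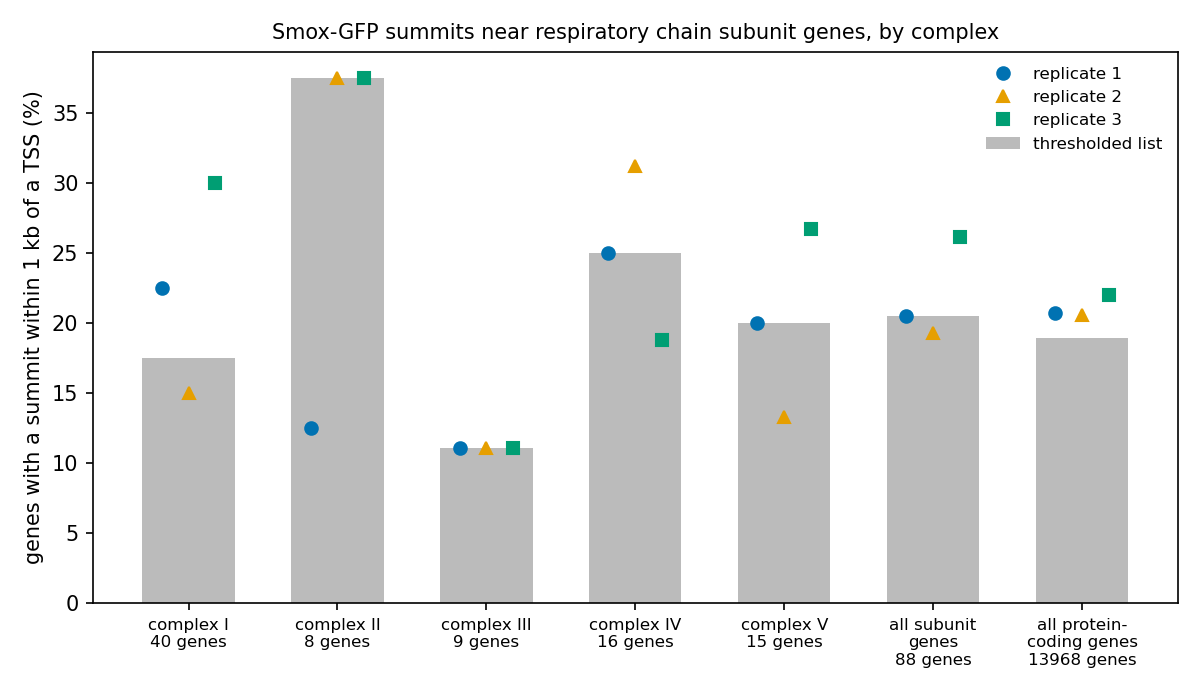
Share of genes in each complex with a summit within 1 kb of a TSS (%), as a bar for the thresholded list and as points for the strongest 6622 regions of each replicate. The complexes run from 11.1% in complex III to 37.5% in complex II, and the replicates of complexes I, II, IV and V spread over a wider range than the distance of their bar from the 18.9% of all genes.

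The 5 complexes could not be put in an order by these counts. The exact intervals all overlapped, and the replicate means were 22.5% ± 7.5 for complex I, 29.2% ± 14.4 for complex II, 11.1% ± 0 for complex III, 25.0% ± 6.25 for complex IV and 20.0% ± 6.67 for complex V (SD, n = 3). The gap between complexes I, IV and V was smaller than the spread between replicates. Complex II was highest in the thresholded list and, in replicate 1, lower than complexes I, IV and V. Median ranks of the called genes were 1262 for complex I, 3530 for complex II, 2176.5 for complex IV and 4161 for complex V.

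Many subunits have a near copy in the fly genome, named by adding the suffix L, L1 or L2 to another symbol of the set, and several such copies are known for expression in the testis. There were 20 of these among the 88. COX6AL, COX6AL2, COX6CL and ATPsynepsilonL end in such a suffix as well, but their symbols without it are not in the set. They were left among the other genes, and none of them was called. Of the copies 1 was called, COX7AL2 (5.0%, exact 95% interval 0.127 to 24.9%), and of the other 68 genes 17 were called (25.0%, exact 95% interval 15.3 to 37.0%). Each replicate called COX7AL2 alone among the copies, while the other genes had 17, 16 and 22 called in replicates 1, 2 and 3. The original of that copy, COX7A, had no region in any list. Both intervals, of the copies and of the 68 genes, include the 18.9% of all genes. The copies had a median length of 784.5 bp and the 68 genes one of 1115 bp. Whether length bears on the 2 shares was not tested.

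The fixed distance of 1 kb decided a few calls. Just inside it were SdhA at 915 bp and UQCR-14 at 931 bp, and just outside were ND-39 at 1504 bp and ATPsyndelta at 1644 bp.

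Over all genes the share called rose with gene length and with the number of starts, and the respiratory chain genes differ from the rest in both. The respiratory chain genes had a median length of 1097 bp, against 2164.5 bp over all genes. Among genes under 2 kb, 14 of 70 respiratory chain genes were called (20.0%), against 11.5% of all genes of that length. Among genes of 2 to 5 kb the shares were 25.0% of 12 and 18.9% of all genes, and for genes of 5 kb or more they were 16.7% of 6 and 32.7%. With 1 annotated start, 7 of 53 were called (13.2%), against 13.2% of all such genes. With 2 starts the share was 30.0% of 30 genes, against 27.6%, and with 3 or more it was 40.0% of 5 genes, against 50.9%. The classes of 2 to 5 kb, of 5 kb or more and of 3 or more starts hold 12, 6 and 5 respiratory chain genes, too few to read a difference from, and no class was tested. Of the respiratory chain genes 34.1% had 2 starts, against 18.4% of all genes.

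**Figure D3:**
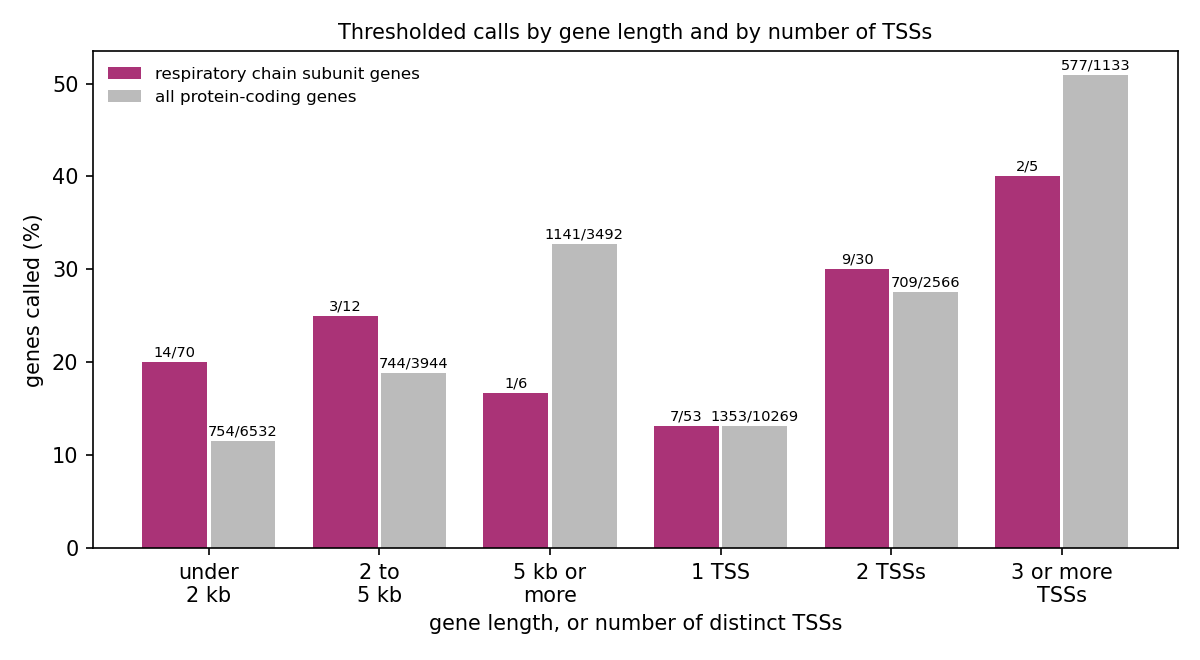
Share of genes called in the thresholded list (%), for respiratory chain genes and for all protein-coding genes, by gene length and by number of distinct TSSs, with called and total genes above each bar. Among genes under 2 kb the bars stand at 20.0% and 11.5%, at 1 TSS they are equal, and the classes of 5 kb or more and of 3 or more TSSs hold 6 and 5 respiratory chain genes.

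Divergent promoters, where 2 genes start back to back, were common at these loci. A divergent protein-coding start lay within 1 kb of 46.6% of the respiratory chain genes, against 35.2% of all genes. Of the 41 with such a neighbour 13 were called (31.7%), against 26.1% of all genes with one. Of the 47 without, 5 were called (10.6%), against 15.0%. Of the called sites, 10 of the 18 best summits (55.6%) lay between divergent starts, against 36.2% of the called genes of the genome, and 14 of 18 (77.8%) had the start of another protein-coding gene within 1 kb, against 49.8%. For 6 of the 18 another gene was the nearer one. The respiratory chain gene had the nearest start in the other 12 (66.7%), against 75.3% of called genes. Given only to the gene with the nearest start, summits called 12 respiratory chain genes, and 14.7% of all genes. ND-MWFE, ND-75, SdhA, ATPsynE, ATPsynCF6 and COX5B were lost by that rule.

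Summits lay upstream of the start in 13 of 18 genes (72.2%), against 80.9% of called genes, and within 250 bp of it in 12 (66.7%), against 54.0%. The median distance was 186.5 bp, against 223 bp. By annotation 11 summits were intergenic, 3 were in introns, 2 in a 5′ UTR, 1 in a coding exon and 1 in a 3′ UTR. Among the 13 genes called in all 3 replicates, the replicates' summits ranged over a median of 67 bp, and in 6 genes they fell within 50 bp. Their best and worst replicate ranks differed by a median ratio of 1.37.

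**Figure D4:**
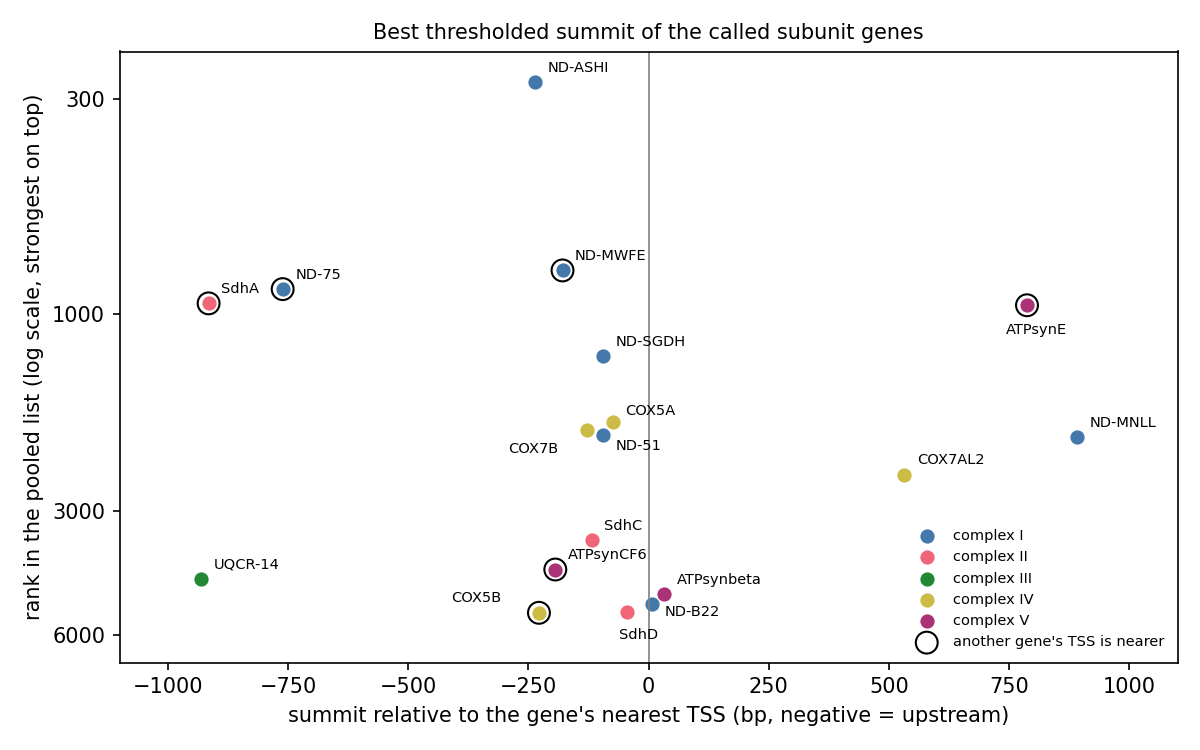
Position of the best thresholded summit relative to the nearest TSS of each called respiratory chain gene (bp, negative upstream) against its rank in the pooled list (log scale, strongest on top); circles mark summits nearer to the TSS of another gene. The summits gather within 250 bp of the start (12 of 18, or 66.7%, against 54.0% of called genes), and 6 of 18 lie nearer to another gene. The gene itself has the nearest start in 66.7%, against 75.3% of called genes.

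Short sequence elements were counted from 75 bases before to 75 after each summit, on both strands, for the 18 genes and for the 1994 best summits of all called genes. The SMAD box GTCT occurred at 9 of 18 (50%), against 40.7% of all, and the GC-rich SMAD element GGCGCC at 1 of 18 (5.56%, COX5B), against 2.01%. CGATA occurred at 4 of 18 (22.2%), against 23.2%. TATAAA occurred at 10 of 18 (55.6%), against 30.9%, in windows with a mean GC content of 31.6% ± 6.17 (SD over 18), against 33.7% ± 8.02 over all 1994. The longer elements TATCGATA (the DRE), CACGTG (the E-box), TTACATAA, TTACGTAA and GGTCACAC were at none of the 18. Over all summits they were at 2.81%, 1.15%, 1.65%, 0.351% and 1.76%. A match to letters describes the window and shows no bound site.

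The same elements were counted in the promoters, taken as 250 bases before to 50 after the start. GGTCACAC is the core of Motif 1, bound by the pausing factor M1BP at many housekeeping promoters. It was in 16 of 88 respiratory chain promoters (18.2%), against 7.69% of the 13968 promoters. By call, it was in 4 of the 18 called genes and 12 of the 70 others. GTCT was in 65.9% of the 88, against 70.3%, CGATA in 52.3%, against 47.3%, TATAAA in 55.7%, against 45.8%, the DRE in 10.2%, against 9.36%, and the E-box in 4.55%, against 4.2%. GGCGCC was in 1.14%, against 4.54%, TTACATAA in 2.27%, against 2.15%, and TTACGTAA in 0 of the 88, against 0.451%. Sites outside the UTRs in 3 uncalled genes, with 10 bases on each side and GGTCACAC or its reverse complement in capitals, on the strand of the gene, show the element in complexes V, IV and I.
ATPsynC (chr3R:31219779-31219806, minus strand): ctactgttatGGTCACACtgcgcctatt
COX4 (chr2L:19958641-19958668, plus strand): ttcgagatgtGGTCACACttctctgcat
ND-PDSW (chr2L:3466120-3466147, plus strand): tgcggcatagGTGTGACCactacctcga

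Genes of 3 other large complexes were counted in the same way. Mitochondrial ribosomal protein genes, whose products translate the subunits encoded by the mitochondrial genome, had 24 of 73 called (32.9%, exact 95% interval 22.3 to 44.9%), with 27, 24 and 26 in replicates 1, 2 and 3. Cytosolic ribosomal protein genes, by their symbols and with duplicated copies included, had 53 of 92 called (57.6%, exact 95% interval 46.9 to 67.9%), with 46, 63 and 60. Proteasome subunit genes had 2 of 48 called (4.17%, exact 95% interval 0.509 to 14.3%), with 4, 8 and 4. The respiratory chain genes, at 17 to 23 of 88 per replicate, fell between the mitochondrial ribosomal and the proteasome genes in the thresholded list and in each replicate list. Their exact interval overlapped those of both, and lay below that of the cytosolic ribosomal protein genes.

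**Figure D5:**
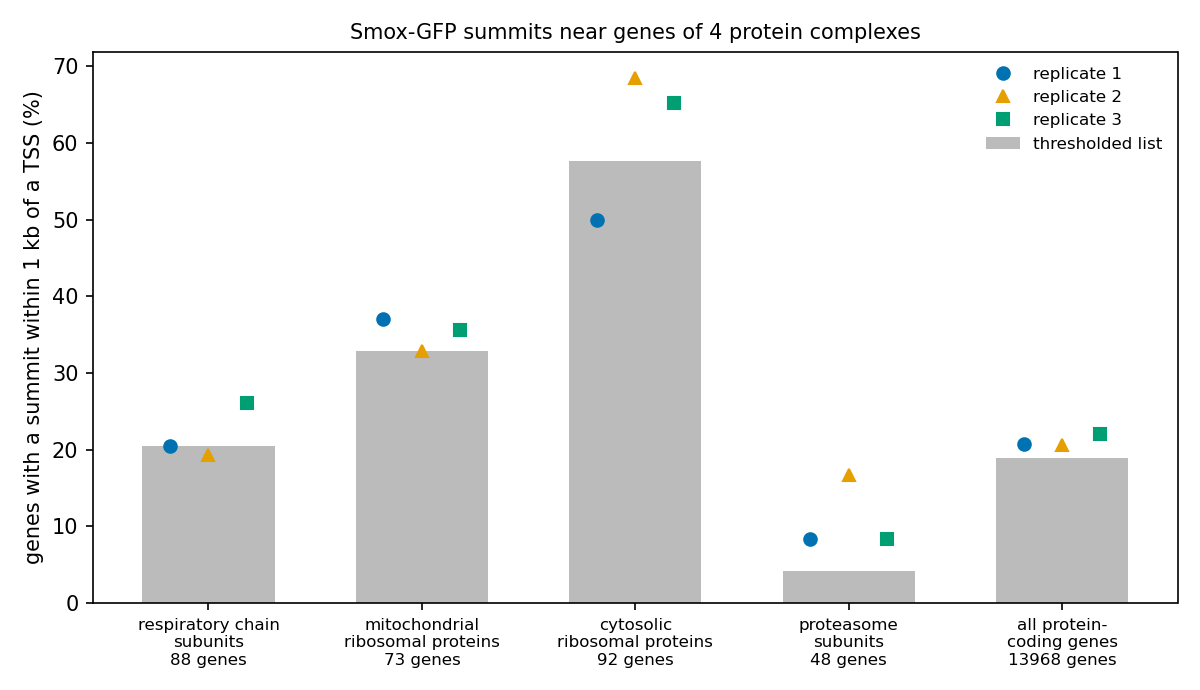
Share of genes with a summit within 1 kb of a TSS (%) for respiratory chain genes, 3 other sets of genes for protein complexes and all protein-coding genes, as bars for the thresholded list and points for each replicate. The respiratory chain genes (20.5%) lie near all genes (18.9%), with cytosolic ribosomal protein genes highest (57.6%) and proteasome genes lowest (4.17%).

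Some subunits carry older gene names that the symbol rule does not reach, and of 9 such genes 3 were called (33.3%), each in all 3 replicates, against 18.9% of all genes called and 15.3% called in all 3 replicates. blw, the alpha subunit of ATP synthase, had a summit of rank 917 at 187 bp upstream. levy and cype, subunits of cytochrome c oxidase, had ranks of 2964 and 3468, at 179 and 250 bp upstream. Of 7 carriers that move electrons, nucleotides or phosphate, the cytochrome c genes Cyt-c-d and Cyt-c-p were called (28.6%, against 18.9% of all genes). Cyt-c-d ranked 242 in the pooled list and 316, 163 and 272 in replicates 1, 2 and 3, and Cyt-c-p ranked 279, with 265, 314 and 319. Both ranked close to ND-ASHI, but their pooled summits lay downstream of a start, at 365 bp for Cyt-c-d and at 945 bp for Cyt-c-p. Of 16 assembly factor genes found in the annotation from 30 symbols, 4 were called in the thresholded list and in all 3 replicates (25.0%, against 18.9% and 15.3% of all genes). The complex I factor CIA30 ranked 97, ahead of every nuclear subunit gene counted here, the complex III factor Ttc19 ranked 924 and the copper chaperone Cox17 ranked 1071. The other called factor was Coa8, at rank 2416. These lists hold 9, 7 and 16 genes, too few to read a difference from all genes, and no list was tested.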

How the data were processed

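ChIP-seq region lists of 3 biological replicates of 1 group were used, on the dm6 assembly. Per the deposited file listings, the authors called regions on each replicate and on the pooled replicates, each with 1 control alignment, and derived the thresholded list by irreproducible discovery rate from those lists. Neither the aligner, the peak caller nor the cutoff is given in the sources used here. The deposited score (column 7) has no stated scale and ranked regions within a list only. The deposited −log10 q-value (column 9) served as an alternative ranking, and column 10 gave the summit offset. Fragments of 200 to 800 bp were taken, per the labels. Depth is unknown, and intervals cover counting error only.

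TSSs came from Ensembl release 115 (BDGP6.54), and sequences from the RefSeq Release 6 genome. Lists on the older dm3 assembly were not used. Shares carry exact Clopper-Pearson intervals at 95%. As a check for duplicated lists, 292 intervals were the same in replicates 1 and 2, with a different score each time, and 0 in other pairs. The summit search, limited to the outermost start, recovered 100 of 100 summits planted near isolated genes in simulated lists. Inner starts and genes with close neighbours were not covered by that check. Every called gene is named, up to 10 per complex, with up to 3 uncalled genes per complex, the 2 genes on each side of 1 kb and called genes of related lists. Further uncalled genes of complexes I, III and IV were named after their values were seen. Genes and lists were chosen with earlier results of these data known. Members were counted with no set test, since genes are not replicates. Python 3.11.15, numpy 2.4.6, pandas 2.3.3 and scipy 1.17.1 were used. Alternatives covered the distance, the threshold, the ranking column, the start used, the overlap and the replicates.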

Additional observations from a re-analysis of the deposited data

Results flagged for a closer look

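The mitochondrial genome, which the counts of nuclear genes leave out, carried 22 regions of the thresholded list. It encodes 13 subunits of the same complexes, and 17 of the summits fell in 8 of these 13 genes. Their median rank in the thresholded list was 245, with a range of 29 to 5390. The strongest were in mt:CoI at rank 29, mt:Cyt-b at rank 30, mt:ND4 at rank 32 and mt:CoII at rank 43, all ahead of ND-ASHI. Replicates 1, 2 and 3 held 22, 26 and 17 mitochondrial regions among their strongest 6622, with best ranks of 9, 9 and 53. Their summits fell in 9, 9 and 8 of the 13 genes. The share of the mitochondrial genome that the 13 genes cover was not computed, so the 17 summits show no preference for these genes. Whether scores on the mitochondrial genome compare with those on nuclear chromosomes was not tested, so the ranks do not compare strength of binding. These regions are given here because the counts of called genes do not use them.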

How the results depend on the processing

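Of 72 recomputed values, 54 stayed within 1.5 times the reported one. Some of the 54 could not change. A call from the thresholded list does not depend on rank within it, and leaving out an uncalled gene keeps the count. The 18 called respiratory chain genes became 13 at 500 bp (15.7% of all genes) and 23 at 2 kb (23.9%). With summits given to the nearest start 12 were called (14.7% of all genes). The count was 18 with outermost 5′ ends (17.0% of all genes) and with ranks by q-value (18.9%). Without the copies named from another symbol of the set, 17 of 68 were called (25.0%). Without the uncalled assembly factor 18 of 87 were called (20.7%), and the share of all genes was 18.9% in both cases. Requiring a strongest region of all 3 replicates to overlap by 1 bp left 13 (14.4% of all genes). With 50% of the region covered, 10 remained (13.3% of all genes), with 4 in complex I, 1 in complex II and 1 in complex V. The strongest 3311 regions called 11 of the 88, with 1 in complex II, 0 in complex III and 1 in complex V, against 12.2% of all genes. The strongest 1000 called 5, with 3 in complex I, 1 in complex II, 0 in complexes III and IV and 1 in complex V, against 5.12% of all genes. Complex III had 0 at 500 bp and complex V had 1 by the nearest start. Leaving out each replicate gave 14 to 17 genes called in all remaining replicates (16.8 to 17.4% of all genes). The mean per replicate was then 17.5 to 20.5 (19.9 to 23.3%), for which no share of all genes was computed. Shares of all genes are given beside the other counts, and the cause of the shifts was not tested. No paired analysis was possible because there was only 1 group. Read depth is unknown. A gene without a region in a list is not shown to lack signal, since ND-24 had none in the pooled list and strong ones in every replicate, and whether regions were removed after calling is not given in the sources used here.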

Other observations

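Genes that feed electrons into the chain or maintain mitochondria were counted as well. Of 17 genes for citric acid cycle and pyruvate dehydrogenase enzymes, 4 were called (23.5%), against 18.9% of all protein-coding genes. Replicates 1, 2 and 3 called 5, 4 and 6, and 2 of the 17 were called in all 3, against 15.3% of all genes. Fum1 shared the region of ND-ASHI at rank 273. The isocitrate dehydrogenase subunit gene Idh3g ranked 484, at 104 bp upstream, with ranks of 469, 606 and 464 in replicates 1, 2 and 3. The citrate synthase gene kdn was weaker, at rank 4491 in the pooled list and 5429, 5509 and 7441 in the replicates. The gene mAcon1, for aconitase, was called in replicate 3 alone, at rank 1737, and is named after its values were seen.

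Of 22 genes for expression of the mitochondrial genome and for mitochondrial biogenesis and dynamics, 5 were called (22.7%), against 18.9% of all genes, and each replicate called 6. The mitofusin gene Marf ranked 508, clu ranked 1929, and the transcription factor gene mTerf3 ranked 4820. ERR, the estrogen-related receptor that acts on metabolic genes, showed the pattern of ND-24: it ranked 1118, 1309 and 659 in replicates 1, 2 and 3, with no region within 1 kb in the pooled list. It was named after its values were seen.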
